A study of Mus musculus with 77 samples.

Results

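The binding of 2 transcription factors, CEBPA and PU.1, was set side by side at 44002 enhancers of the granulocytic and monocytic lineage in wild type preGM, a progenitor of mouse bone marrow. Each enhancer was given a percentile rank for its CEBPA signal and another for its PU.1 signal in these cells. Enhancers with a rank above 90 for a factor were called high and those with a rank of at most 50 low. By this rule 1226 enhancers (2.79% of all) were high for CEBPA and low for PU.1, 1757 (3.99%) were high for PU.1 and low for CEBPA, and 804 (1.83%) were high for both. They are called CEBPA-only, PU.1-only and co-high enhancers here, and the 12572 enhancers that were low for both serve as a reference.

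CEBPA is a leucine zipper transcription factor that is required for the step into the granulocyte and monocyte lineage. PU.1, the ETS family factor encoded by Spi1, acts in stem cells, myeloid cells and B cells and is known to open chromatin at myeloid enhancers. H3K27ac is a histone mark of active enhancers, and H3K4me1 marks enhancers that are active or poised.

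The series holds 53 ChIP-seq and 24 RNA-seq samples of sorted bone marrow cells, and the values used come from 15 groups of 2 ChIP-seq libraries each. Wild type LSK were sorted as Lin-, Sca-1+ and ckit cells (the label gives no sign for ckit), wild type preGM as Lin-, Sca-1-, ckit+, CD150- and CD105- cells, and wild type GMP as Lin-, Sca-1-, ckit+, CD150- and FcgRII/III+ cells. Granulocytes were Mac1+ and Gr-1+, and the remaining group was preGM of Cebpa knockout (KO) mice, for which the labels used here name no Cre driver. Values were used for CEBPA in wild type preGM, for PU.1 in KO preGM and the 3 wild type progenitors, and for both histone marks in all 5 populations. Each enhancer has 1 deposited signal value per group, in which the 2 libraries are not separated, so no value below has a replicate error and no difference was tested. In sorted bulk cells, a lower signal in every cell and a signal in fewer cells cannot be told apart.

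The signals that chose the enhancers had different ranges. CEBPA had a median signal of 0.534, a 95th percentile of 1.52, a 99th of 4.0 and a maximum of 22.6. PU.1 had a median of 1.34, a 95th percentile of 12.3, a 99th of 30.1 and a maximum of 126. The rank of 90 fell between CEBPA signals of 1.0643 and 1.065 and between PU.1 signals of 7.2586 and 7.2612. The rank of 50 fell between CEBPA signals of 0.53434 and 0.53497, and at a PU.1 signal of 1.3409 on both sides. A CEBPA rank just above 90 is therefore a signal about 2 times the median, while a PU.1 rank just above 90 is more than 5 times it. The CEBPA-only enhancers had a median CEBPA signal of 1.36 and a median PU.1 signal of 0.827. The PU.1-only enhancers had medians of 0.392 for CEBPA and 12.2 for PU.1, and the co-high enhancers 1.68 and 12.6.

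**Figure D1:**
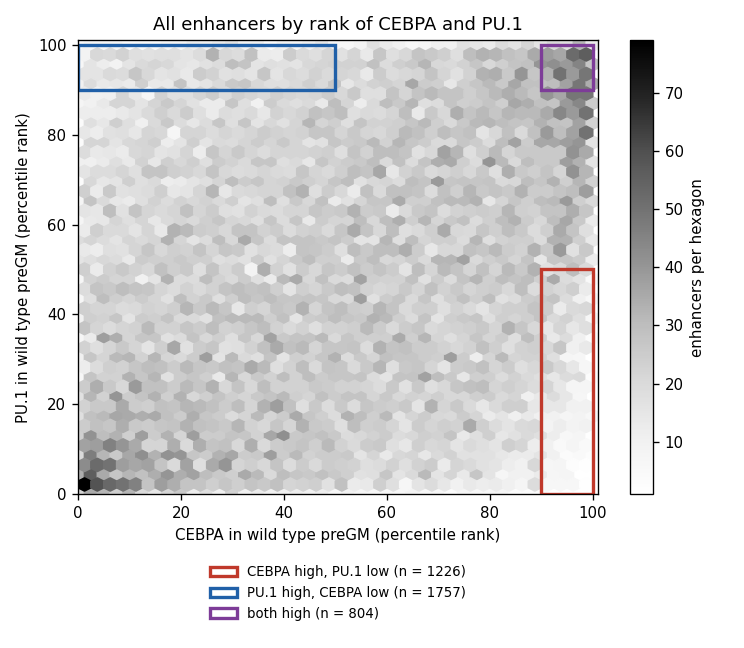
All 44002 enhancers by percentile rank of the CEBPA signal (x axis) and of the PU.1 signal (y axis) in wild type preGM, shaded by the number of enhancers per hexagon, with the 3 sets outlined. The corner that is high for both is filled more densely (804 enhancers) than its size alone gives (440), and the area of high CEBPA and low PU.1 more thinly (1226 against 2200).

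The 2 factors shared a minor portion of their ranking. Spearman's correlation between the CEBPA and PU.1 signals was 0.215 over the 44002 enhancers, a description of columns that share their regions and, possibly, their sequencing depth. It was 0.151 among the 4399 enhancers with a CEBPA rank above 90 and 0.0197 among the 4401 with a PU.1 rank above 90. Of the enhancers high for CEBPA, 18.3% were high for PU.1, 53.9% were between ranks 50 and 90 and 27.9% were low. Of those high for PU.1, 41.8% had a middle CEBPA rank and 39.9% a low one. The product of the margins is 440 enhancers for the co-high set, 2200 for the CEBPA-only set and 2202 for the PU.1-only set, against the 804, 1226 and 1757 counted. Dividing both signals by the width of the enhancer before ranking gave 1683 co-high, 281 CEBPA-only and 580 PU.1-only enhancers. Both ranks then share a divisor, which by itself makes them agree more, so nothing about the 2 factors is read from that change. The deposited signals were nearly unrelated to width (Spearman's correlation -0.0987 for CEBPA and -0.129 for PU.1), and the median width was 207 bp, 190 bp and 166 bp in the CEBPA-only, PU.1-only and co-high sets.

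The 8 strongest CEBPA-only enhancers were assigned to Ctr9, Hnrnph1, Abcc5, Auh, Sp3, Ldlrad3 and Cyb5rl, with CEBPA signals between 8.47 and 13.5 and PU.1 signals no higher than 1.31. The top one lies at chr7:118168186-118168424 in build mm9 and belongs to Ctr9, which encodes a subunit of the PAF1 complex of transcription elongation. Its CEBPA signal was 13.5 and its PU.1 signal 0.773 in LSK, 0.552 in preGM, 0.404 in GMP and 0.580 in KO preGM. H3K27ac at this enhancer was 1.00 in LSK, 1.29 in preGM, 1.65 in GMP and 1.29 in granulocytes, and 0.560 in KO preGM. PU.1 was thus at or below the median of all enhancers in each of its 4 groups, and the knockout had the lowest H3K27ac of the 5 populations.

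The same gene could hold both kinds of enhancer. Sp3, which encodes a zinc finger transcription factor, had 26 enhancers, of which 2 were CEBPA-only and 1 was PU.1-only. The enhancer at chr2:72884893-72885311 had a CEBPA signal of 8.92 and a PU.1 signal of 0.520. The one at chr2:72891959-72891984 had the strongest PU.1 signal of its set, 106, with a CEBPA signal of 0.431. PU.1 there was 82.2 in LSK, 79.0 in GMP and 58.8 in KO preGM, so it was strong in all 4 groups measured. H3K4me1 at the CEBPA-bound enhancer of Sp3 was 0.878 in LSK, 1.33 in preGM, 3.57 in GMP and 5.49 in granulocytes, and at the PU.1-bound one 3.14, 2.58, 3.43 and 6.19. Ldlrad3, Slc22a15, Sec14l1, Elmo1 and Pde4d also had strong enhancers of both single-factor sets. In all, 208 genes did, which is 21.3% of the 976 genes with a CEBPA-only enhancer and 15.7% of the 1325 genes with a PU.1-only one. Enhancers in all 3 sets were found at 44 genes. The base is 10096 genes with a mean of 4.36 enhancers each. A gene with many enhancers, such as Sp3 with 26 or Elmo1 with 33, has more ways into both sets. The overlap was not adjusted for this, so its size is not read.

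The other leading PU.1-only enhancers were those of Rreb1 (PU.1 signal 88.2), Ptma (85.2), Slc39a13 (78.5), Bcl11a (75.9), Idh2 (75.2), Actb (74.6) and Ly86 (73.9). Bcl11a encodes a zinc finger repressor with roles in B cells and stem cells, and Ly86 a surface protein of myeloid and B cells. CEBPA signals at these enhancers lay between 0.201 and 0.482. The leading co-high enhancers, ranked by the lower of their ranks, were those of Slc39a13, Zyx (with 2), Plcg2, Zc3h12d, Fndc3b, Cyp4f18 and Mtap7. Plcg2 encodes a phospholipase of immune receptor signalling, and its enhancer at chr8:120050153-120050265 had signals of 5.20 for CEBPA and 48.4 for PU.1.

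Slc39a13, a zinc transporter gene, is the immediate neighbour of Spi1 in the order of RefSeq genes. No enhancer in the table was assigned to Spi1 itself, the gene of PU.1. Slc39a13 had 4 enhancers, among them the fourth strongest PU.1-only enhancer and the leading co-high one. The PU.1-only enhancer, chr2:90910887-90910905, had PU.1 signals of 66.5 in LSK, 78.5 in preGM, 59.0 in GMP and 43.2 in KO preGM, with a CEBPA signal of 0.384. The co-high enhancer, chr2:90923235-90923323, had PU.1 signals of 41.3, 46.6, 40.8 and 17.8 in the same order and a CEBPA signal of 7.28. H3K27ac at the latter was 3.42 in LSK, 4.41 in preGM, 6.03 in GMP, 11.6 in granulocytes and 3.50 in KO preGM. Both enhancers carried PU.1 in LSK and GMP as well as in the preGM cells that chose them.

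Cebpa itself had 16 enhancers and none in the 3 sets, 3 of them being low for both factors. At chr7:35904309-35904348 and chr7:35904704-35904792 the CEBPA ranks were 96.15 and 96.07 with PU.1 ranks of 80.75 and 84.56, below the 90 of the co-high set. H3K27ac at them was 5.07 and 7.48 in wild type and 10.1 and 14.9 in KO preGM, while H3K4me1 was 3.09 and 3.99 in wild type and 1.65 and 0.857 in KO, so the 2 marks differed in opposite directions. At chr7:35906741-35906988 the KO signals were 0.032 for H3K27ac, 0.00686 for H3K4me1 and 0 for PU.1, each the lowest of all 44002 enhancers, against 0.812, 3.14 and 0.406 in wild type. The KO label was checked by these values alone, and the extent of the deletion is not given in the labels used here.

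**Figure D2:**
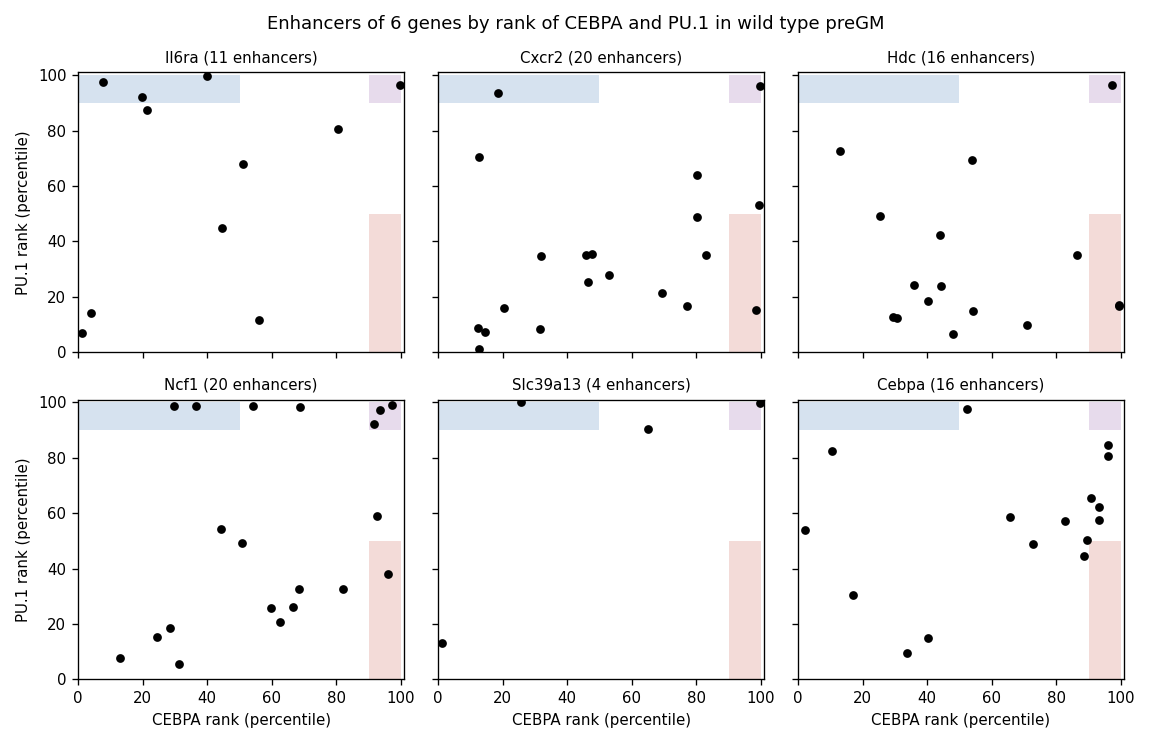
Percentile ranks of CEBPA (x axis) and PU.1 (y axis) in wild type preGM for every enhancer assigned to 6 genes, 1 point per enhancer, with the CEBPA-only (red), PU.1-only (blue) and co-high (purple) areas shaded. Il6ra has 3 PU.1-only and 1 co-high enhancer, Cxcr2 1 enhancer in each set, Hdc 2 CEBPA-only and 1 co-high, and Cebpa none in any of them.

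Enhancers of different kinds stood side by side at receptor and granulocyte genes. Il6ra, the receptor for interleukin 6, had 11 enhancers, of which 3 were PU.1-only and 1 was co-high. The co-high one at chr3:89717178-89717212 had a CEBPA signal of 7.19 and PU.1 signals of 8.90 in LSK, 15.7 in preGM, 16.9 in GMP and 6.98 in KO preGM. Its H3K27ac was 2.88 in LSK, 3.84 in preGM, 8.48 in GMP, 9.33 in granulocytes and 1.35 in KO preGM. The neighbouring PU.1-only enhancers, chr3:89715135-89715406 and chr3:89715827-89715908, had CEBPA signals of 0.470 and 0.240. Their H3K27ac was 1.15 and 1.62 in wild type preGM and 0.652 and 0.504 in KO preGM, and at the third PU.1-only enhancer of Il6ra (chr3:89691559-89691761, CEBPA signal 0.343) it was 1.08 and 0.595. All 4 enhancers of Il6ra in the sets had less H3K27ac in the knockout, those with little CEBPA included. The co-high one and its neighbouring PU.1-only ones lie within chr3:89715135-89717212 and can share signal, so they are not separate observations.

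Cxcr2, the neutrophil chemokine receptor, had 20 enhancers and 1 in each set. The CEBPA-only enhancer (chr1:74197177-74197547) had a CEBPA signal of 3.0 and a PU.1 signal of 0.501. The co-high one (chr1:74202074-74202240) had 5.72 and 14.1, and the PU.1-only one (chr1:74206286-74206806) 0.336 and 10.3. H3K4me1 in preGM and then GMP was 2.85 and 5.24, 3.76 and 5.66, and 1.65 and 1.75 at these in turn. The enhancers with CEBPA had the larger H3K4me1 signal in GMP. Hdc, the histamine-forming enzyme, had 2 CEBPA-only enhancers with CEBPA signals of 4.98 and 4.85, and a co-high one with 2.20 for CEBPA and 15.3 for PU.1. H3K27ac in granulocytes was 8.93, 3.54 and 16.0 at these 3, against 0.696, 0.564 and 1.46 in wild type preGM and 0.621, 0.532 and 1.49 in KO preGM. Granulocytes had the highest H3K27ac at each, and wild type and KO preGM were close.

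Ncf1 and Ncf4 encode cytosolic subunits of the phagocyte NADPH oxidase. Ncf1 had 1 CEBPA-only, 2 PU.1-only and 3 co-high enhancers among 20. The strongest co-high one of Ncf1 (chr5:134709099-134709226) had signals of 2.13 for CEBPA and 31.3 for PU.1. Ncf4 had a PU.1-only enhancer and a co-high one at chr15:78088759-78088905. PU.1 at the latter was 2.26 in LSK, 19.8 in preGM, 28.0 in GMP and 8.92 in KO preGM. H3K27ac there was 0.936 in LSK, 2.46 in preGM, 6.14 in GMP and 14.6 in granulocytes, with 2.59 in KO preGM. PU.1 at this Ncf4 enhancer was lowest in LSK, and its H3K27ac in KO preGM was close to that in wild type.

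The gene lists, chosen for this tissue, are given by how many of their enhancers fell in each set, beside 2.79% CEBPA-only, 3.99% PU.1-only and 1.83% co-high over all enhancers. Known PU.1 target genes had 177 enhancers, of which 2.82% were CEBPA-only, 7.34% PU.1-only and 6.21% co-high. Growth factor and cytokine receptors had 228, of which 2.19%, 6.58% and 3.51% were in these sets in turn. Known CEBPA target genes had 183, with 1.64%, 3.83% and 1.09%, so this list held no larger share of CEBPA-only enhancers than the whole table. That share is only 3 enhancers, too few to read a difference from the whole table. The strongest member of that list in the CEBPA-only set was Csf3r, the G-CSF receptor (chr4:125694337-125694805), with a CEBPA signal of 2.37 and a PU.1 signal of 0.616. H3K4me1 at the Csf3r enhancer was 0.786 in LSK, 0.603 in preGM, 2.18 in GMP, 5.10 in granulocytes and 0.222 in KO preGM.

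Transcription factors of the C/EBP and PU.1 families and their partners had 301 enhancers, with 2.66% CEBPA-only, 2.99% PU.1-only and 2.33% co-high. Irf8, a factor of monocyte and dendritic cell development, had a co-high enhancer (chr8:123316676-123316768) with signals of 6.74 for CEBPA and 12.6 for PU.1. Its H3K27ac was 2.97 in wild type and 1.58 in KO preGM. Fos had a PU.1-only and a co-high enhancer, with H3K27ac of 5.23 and 2.27 in wild type and 5.03 and 1.19 in KO preGM. Myb had CEBPA-only enhancers, the stronger with a CEBPA signal of 2.11 and a PU.1 signal of 0.460. Runx1 and Irf4 had PU.1-only enhancers, with PU.1 signals of 10.7 and 11.1.

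Primary granule protein genes had 39 enhancers, 1 CEBPA-only and 1 PU.1-only, both of Gstm1. Secondary granule and mature neutrophil genes had 120, of which 3.33% were CEBPA-only, 1.67% PU.1-only and 0.833% co-high. Monocyte and macrophage genes had 143, with 2.10%, 4.90% and 2.10%. Stem and multipotent progenitor genes had 240, with 1.67%, 2.92% and 0.417%, the co-high one being that of Tal1. Cell cycle genes had 131, with 2.29%, 3.82% and 1.53%. The CEBPA-only members of the cell cycle list were all at Ccnd3, and 4 of its 5 PU.1-only members were at Ccnd2, both encoding D-type cyclins. The 3 Ccnd2 enhancers with the highest signal lay within chr6:127112534-127113524 and had PU.1 signals of 38.8, 39.2 and 38.7, so neighbouring members share signal and are not separate observations.

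Among lists of other cell types, the 16 enhancers of erythroid genes and the 12 of B cell genes held no member of any set. T and NK cell genes had 1 PU.1-only enhancer of 15 (Zap70). Dendritic cell genes had 42 enhancers with 1 CEBPA-only and 1 co-high. Mast cell, basophil and eosinophil genes had 19 with 2 CEBPA-only and 1 co-high, all of Hdc. Megakaryocyte genes had 89, of which 9 (10.1%) were CEBPA-only, 5 (5.62%) PU.1-only and 3 (3.37%) co-high. They belonged to only 4, 2 and 3 genes in turn, and enhancers of 1 gene are not separate observations. These lay at Itgb3, Nfe2, Fli1, Vwf and Gp9 among others, and Nfe2, a leucine zipper factor of megakaryocytes that myeloid cells also express, had the co-high enhancer with a CEBPA signal of 14.7. The table holds signal at assigned enhancers and no expression value used here, so the share of other cell types in the sorted populations was not tested.

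The histone marks, which did not enter the choice of members, differed between the sets. In wild type preGM, the median H3K27ac was 0.751 at CEBPA-only, 1.23 at PU.1-only and 1.45 at co-high enhancers, against 0.693 at those low for both and 0.908 over all. H3K4me1 in preGM was 2.38, 3.23 and 3.60 in the same order, against 2.66 at the enhancers low for both and 3.07 over all. CEBPA-only enhancers thus had a lower median H3K4me1 than the enhancers low for both factors. This order of the sets held under every other threshold and ranking tried for H3K4me1, and for H3K27ac except with 1 enhancer per gene, where PU.1-only (1.55) was above co-high (1.47). That setting kept 428 PU.1-only enhancers, although 1325 genes have one, and 659 co-high ones, which 665 genes have. It is therefore not a neutral subset of the sets. Over all enhancers, Spearman's correlation with H3K27ac in preGM was 0.127 for CEBPA and 0.423 for PU.1.

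At later stages the medians of the sets lay closer together for H3K4me1. At CEBPA-only enhancers, the median H3K4me1 was 2.21 in LSK, 2.38 in preGM, 3.77 in GMP and 5.80 in granulocytes. At PU.1-only enhancers it was 3.60, 3.23, 4.02 and 5.63, and at co-high ones 4.01, 3.60, 4.54 and 6.78. The median H3K27ac of CEBPA-only enhancers was 0.813 in LSK, 0.751 in preGM, 1.17 in GMP and 1.75 in granulocytes, that of PU.1-only enhancers 1.13, 1.23, 1.67 and 2.05, and that of co-high enhancers 1.28, 1.45, 2.24 and 3.63. For H3K4me1 the CEBPA-only median thus went from below the reference in preGM to above the PU.1-only median in granulocytes, while for H3K27ac it stayed below the PU.1-only median at all 4 stages. The quartile ranges of the sets overlapped at every stage.

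**Figure D3:**
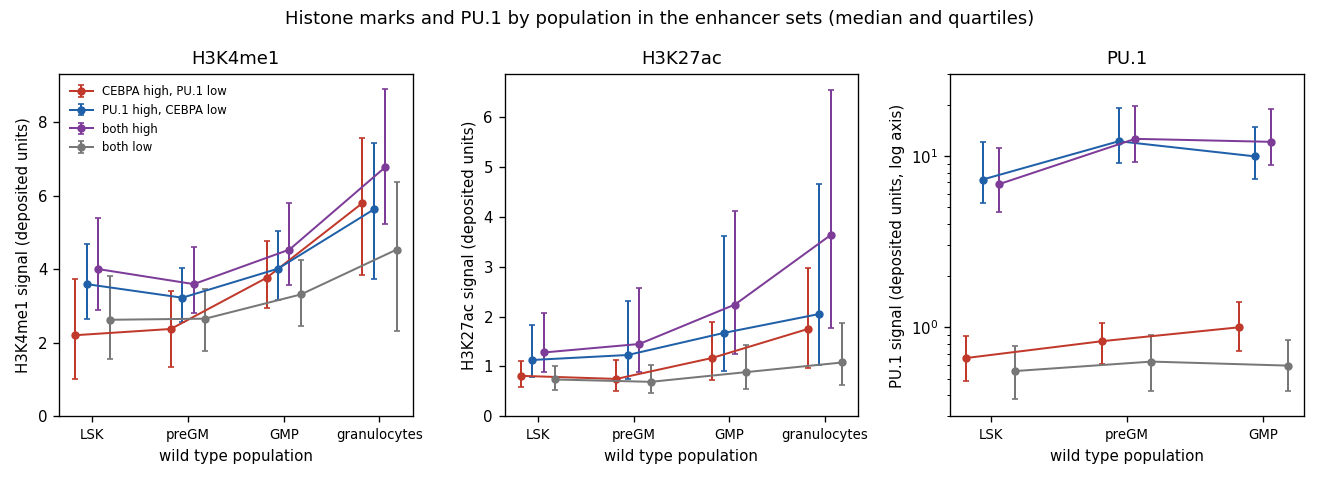
Signal of H3K4me1, H3K27ac and PU.1 (y axes, deposited units, a log axis for PU.1) in wild type populations (x axis) for the 3 sets and the enhancers low for both factors; points are medians over enhancers and bars run from the lower to the upper quartile. H3K4me1 at CEBPA-only enhancers goes from a median of 2.38 in preGM to 5.80 in granulocytes, and the PU.1 median at them lies between 0.659 and 0.996 in all 3 populations.

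Counted by enhancer, 65 CEBPA-only enhancers (5.30%) had at least 2-fold higher H3K4me1 in GMP than in preGM, on a log2 scale with a pseudocount of 2 added to both values. None of the PU.1-only or co-high enhancers did, and over all enhancers the share was 0.855%. To be counted, the GMP signal must be at least 2 times the preGM signal plus 2. Median preGM signals were 2.38 at CEBPA-only, 3.23 at PU.1-only and 3.60 at co-high enhancers, so the sets were not equally open to the count. Enhancers low for both, with a median of 2.66, had a share of 0.772%. The median log2 ratio was 0.37 at CEBPA-only, 0.21 at PU.1-only and 0.24 at co-high enhancers, against 0.21 over all. After subtracting the median of all enhancers the CEBPA-only share was 1.31%, against 0.205% over all. The share depends on the pseudocount, at 24.4% with one 4 times smaller and 0% with one 4 times larger. The enhancer with the largest ratio was that of Hal, the histidine-degrading enzyme histidine ammonia-lyase (chr10:92951429-92951487), with H3K4me1 of 0.530 in LSK, 0.848 in preGM, 6.54 in GMP and 13.2 in granulocytes. Rab20, a small GTPase gene, followed, with 0.731, 0.595, 5.04 and 10.9. Both were near the bottom of the range in LSK and preGM and high from GMP on, while their CEBPA signals in preGM were 2.45 and 1.61.

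From preGM to GMP, H3K27ac was at least 2-fold higher at 14.1% of CEBPA-only, 8.99% of PU.1-only and 12.8% of co-high enhancers, against 9.21% over all. The median of all enhancers was itself 0.29 higher on the log2 scale, and relative to it the shares were 6.2%, 2.16% and 3.73%, against 2.77%. From GMP to granulocytes it was at least 2-fold higher at 21.8%, 13.3% and 25% of these sets, against 14.1% over all, and relative to a shift of 0.14 at 16.9%, 10.4% and 19%, against 10.8%. The PU.1-only share was thus near or below that of all enhancers at both steps, and the other 2 sets were above it. H3K4me1 was at least 2-fold higher in granulocytes than in GMP at 9.30%, 3.76% and 3.23% of the sets in the same order, against 9.69% over all, so no set was above the whole table there. Relative to the median of all enhancers, 0.33 on the log2 scale, these shares were 3.75%, 0.398% and 0.498% against 3.43%, which puts the CEBPA-only set slightly above.

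The authors' deposited class of stages has no stated criterion and may rest on the same histone mark libraries, so it is not separate evidence. A class without preGM (GMP, granulocytes or both) held 67.1% of CEBPA-only enhancers, 36.0% of PU.1-only and 42.7% of co-high ones, against 50.5% of those low for both and 45.5% of all. Classes that name LSK held 7.99%, 17.8% and 18%, against 15.3% of all. Classes that name granulocytes held 51.3%, 42.2% and 54.0%, against 42.5%. The class goes together with the marks: the 823 CEBPA-only enhancers in a class without preGM had a median H3K4me1 of 1.73 in preGM and 3.54 in GMP, and the 403 in a class with preGM had 3.68 and 4.34. Enhancers low for both factors had 1.85 and 2.95 in a class without preGM, and 3.29 and 3.73 in a class with preGM. A class without preGM goes together with a lower preGM mark, and 372 of the 376 enhancers with at least 2-fold higher H3K4me1 in GMP lie there, so nothing is read from the split.

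**Figure D4:**
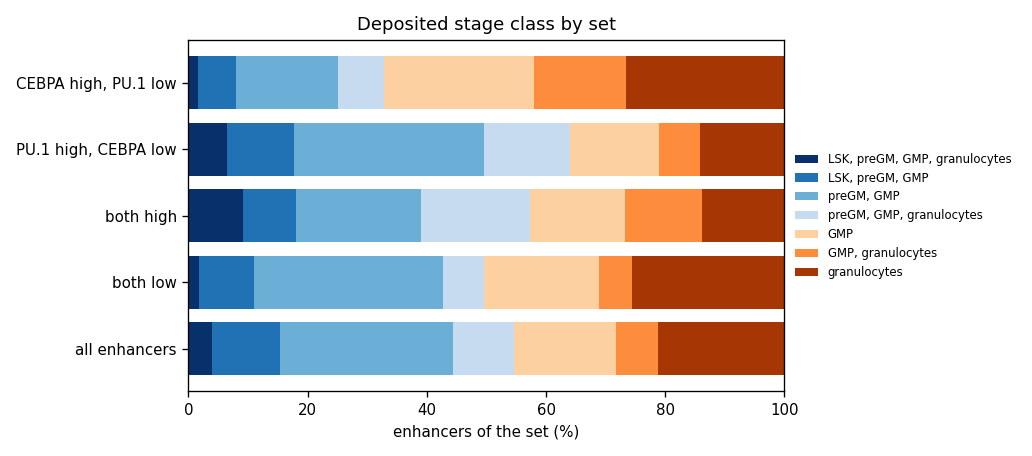
Share of enhancers (x axis, percent) in each deposited class of stages, for the 3 sets, the enhancers low for both factors and all enhancers (y axis). Orange and brown parts are classes without preGM, which make up 67.1% of the CEBPA-only set and 36.0% of the PU.1-only set.

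PU.1 at the same enhancers in other populations had not been used to choose them. PU.1-only enhancers had a median PU.1 rank of 95 in LSK, 94.3 in GMP and 94.9 in KO preGM, and CEBPA-only enhancers 30.6, 41.7 and 28.5. Over all enhancers the PU.1 signal in preGM had a Spearman's correlation of 0.885 with that in LSK, 0.916 with GMP and 0.879 with KO preGM. The co-high enhancers had a lower median PU.1 signal than PU.1-only enhancers in LSK (6.84 against 7.28) and a higher one in GMP (12.1 against 9.95). PU.1 was at least 2-fold higher in GMP than in LSK at 31.1% of co-high enhancers, 12.3% of PU.1-only and 11.3% of CEBPA-only ones, against 7.33% over all (pseudocount 0.6). The co-high share was the highest of the 3 under each alternative tried, at 18% to 33.3%, and 23.8% relative to the median of all enhancers (0.20 on the log2 scale), against 4.60% over all. The CEBPA-only and PU.1-only shares had no fixed order, and the CEBPA-only one ranged from 0.816% with a pseudocount 4 times larger to 26% with one 4 times smaller.

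The co-high enhancer with the highest ratio was that of Zcchc8, a zinc finger protein gene of nuclear RNA decay (chr5:124163692-124164412), with PU.1 of 1.35 in LSK, 10.3 in preGM, 27.2 in GMP and 1.33 in KO preGM. The enhancer of Prkcd, a protein kinase C gene (chr14:31406504-31406544), had 5.23, 26.6, 34.9 and 5.98. That of Aldh3b1, an aldehyde dehydrogenase gene, had 1.62, 10.5, 19.9 and 2.06. At these 3 the KO value lay near that of LSK, whereas the enhancer of Ncf4, with the second highest ratio, had 2.26 in LSK and 8.92 in KO preGM. The CEBPA-only enhancers with the highest ratios, those of Sgms2, Rnh1, Tiam1 and Ikbke, had PU.1 signals of 0.399 to 0.593 in LSK, 0.996 to 1.31 in preGM and 4.08 to 5.08 in GMP.

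In KO preGM, PU.1 was at least 2-fold lower than in wild type at 25.6% of PU.1-only and 36.1% of co-high enhancers, against 6.15% over all. The wild type values chose these enhancers as high, so the shares are a description from which nothing is read. The median PU.1 signal was 6.80 in KO and 12.2 in wild type preGM at PU.1-only enhancers, and 6.56 and 12.6 at co-high ones. Against LSK, a comparison that does not use the wild type preGM values, the median log2 ratio of PU.1 in KO preGM was -0.17 at PU.1-only and -0.15 at co-high enhancers, against 0.02 over all enhancers and 0.08 at those low for both. The ratio was below 0 at 66.2% of PU.1-only and 62.9% of co-high enhancers, against 47.5% of all, so on this scale both sets lay below the whole table. By rank they did not move: the median PU.1 rank of co-high enhancers was 94.5 in LSK and 94.6 in KO preGM. The ranks of PU.1-only enhancers given above were also nearly the same in LSK and KO preGM. The highest PU.1 signal of any enhancer was 115 in LSK and 65.4 in KO preGM, so the signals differed in range. Whether the lower ratios come from this range was not tested, so no loss of PU.1 is read from them.

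H3K27ac in the knockout was compared as the log2 ratio of KO to wild type preGM, with a pseudocount of 0.7. Few enhancers were counted as at least 2-fold lower: 12 CEBPA-only (0.979%), 5 PU.1-only (0.285%) and 5 co-high (0.622%), against 0.47% over all. Those at least 2-fold higher were 4 (0.326%), 5 (0.285%) and 0 (0%), against 0.441% over all. The share that was at least 2-fold lower was higher in the CEBPA-only than in the PU.1-only set under each alternative that gave any, although with ranks per width and with 1 enhancer per gene this compares 1 enhancer with 1, in sets of unequal size. None was counted in any set with a pseudocount 4 times larger, and 5.71%, 2.16% and 5.22% were with one 4 times smaller. With the pseudocount of 0.7, an enhancer below 0.7 in wild type cannot be counted as lower. The wild type medians were 0.751 at CEBPA-only, 1.23 at PU.1-only and 1.45 at co-high enhancers, so the sets were not equally open to the count. With ranks per width and with 1 enhancer per gene the CEBPA-only share was 0.356% and 0.385%, below the 0.47% of all enhancers. That 0.47% is of the whole table, not of the table reduced to 1 enhancer per gene. The reduction kept 260 CEBPA-only enhancers, although 976 genes have one, and 659 co-high ones, which 665 genes have. It thus favoured co-high enhancers, and nothing is read from the 0.385%. The medians were close to 0, at -0.02 for CEBPA-only, 0.05 for PU.1-only and -0.02 for co-high enhancers, against 0.05 over all. The CEBPA-only and co-high medians changed sign under other thresholds or rankings.

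Divided into tiers of CEBPA rank, the median KO ratio was lower in the top tiers at each level of PU.1. At PU.1 ranks of at most 50 it was 0.0274, 0.0368, 0.00933, -0.0716 and -0.0797 for CEBPA ranks of at most 50, 50 to 90, 90 to 95, 95 to 99 and above 99. At PU.1 ranks above 90 it was 0.0464, 0.0608, -0.00965, -0.0192 and -0.0631. The highest tier held 75 enhancers with low PU.1 and 103 with high PU.1, of which 61.3% and 59.2% had a ratio below 0, against 46.9% of the enhancers low for both. These differences between medians are small beside the spread of single enhancers, whose quartiles in the CEBPA-only set were -0.289 and 0.254.

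**Figure D5:**
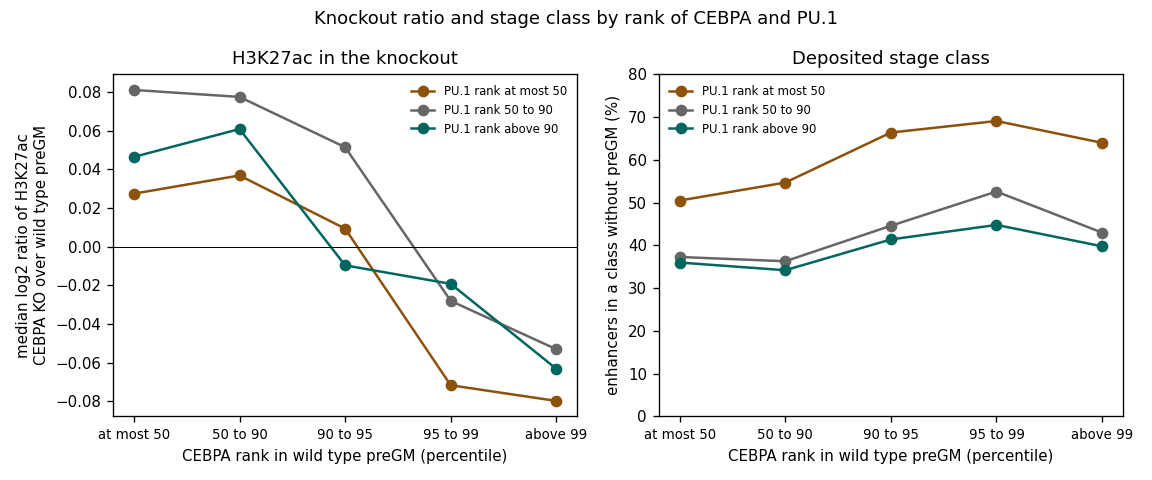
Left, median log2 ratio of H3K27ac in KO over wild type preGM (y axis) by tier of CEBPA rank (x axis), 1 line per tier of PU.1 rank. Right, percent of enhancers in a deposited stage class without preGM for the same tiers. On the left all 3 lines lie above 0 at CEBPA ranks up to 90 and below 0 above 95, and on the right enhancers with low PU.1 (brown) lie highest throughout, from 50.5% to 69.1%.

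The CEBPA-only enhancers at least 2-fold lower in H3K27ac included that of Ldlrad3 (chr2:102042164-102042517, CEBPA signal 8.65), at 1.63 in wild type and 0.394 in KO preGM. Others were those of Mapkapk2, a stress kinase gene, at 1.33 and 0.163, and of Clstn3 at 1.79 and 0.437. Gosr2, a Golgi transport gene, had 2 adjacent ones at 2.71 and 0.635 and at 2.69 and 0.979. The co-high ones were those of Prkcd (2.79 in wild type and 0.752 in KO), Il6ra, Lpcat2 (2.65 and 0.886), Slc15a3 (3.02 and 1.07) and Zeb2 (1.49 and 0.383). The PU.1-only ones were those of Gramd4, Notch4, 4931406H21Rik, Rcbtb2 and Btbd11. At least 2-fold higher in the knockout were the CEBPA-only enhancers of Zfp281, Sorl1, Rnf182 and Arhgap26. So were PU.1-only enhancers of Gse1, Itgal and Gnb2, and of Rps6ka1 at chr4:133460678-133461062 and chr4:133461381-133461600. The PU.1-only set thus had as many higher as lower.

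The median H3K4me1 in the knockout was below that of wild type in the CEBPA-only set alone of the 3. It was 2.23 in KO and 2.38 in wild type preGM at CEBPA-only enhancers, 3.84 and 3.23 at PU.1-only and 4.16 and 3.60 at co-high ones. The median log2 ratio was -0.02, 0.16 and 0.15 in the same order, against 0.06 at enhancers low for both and 0.10 over all. The quartiles of this ratio overlapped, at -0.17 and 0.123 for CEBPA-only enhancers and -0.0457 and 0.173 for those low for both. Within the CEBPA-only set, the 823 enhancers in a stage class without preGM had a median of 1.34 in KO and 1.73 in wild type preGM, and the 403 in a class with preGM had 3.97 and 3.68, higher in KO as in the other sets. With the pseudocount of 2, no enhancer of the 3 sets was counted as 2-fold different in either direction. Over all enhancers 4 (0.00909%) were counted as lower and 0 as higher. An enhancer below 2 in wild type cannot be counted as lower with this pseudocount, whatever its KO value. The CEBPA-only enhancer of Sp3 at chr2:72884893-72885311, with 1.33 in wild type and 0.380 in KO preGM, was therefore not counted.

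The authors' deposited class of bound factors, whose criterion is not stated and which may rest on the same libraries, matched the ranks in most but not all enhancers. A class naming CEBPA held 79.6% of CEBPA-only, 12.2% of PU.1-only and 94.4% of co-high enhancers, against 21.5% of all. A class naming PU.1 held 1.96%, 99.9% and 99.6%, against 28.3% of all. The class naming no factor held 247 CEBPA-only enhancers (20.1%) and 2 PU.1-only ones (0.114%), against 59.5% of all. The CEBPA-only enhancer of Mapkapk2 given above was in this class, with a CEBPA signal of 1.13. The strongest PU.1-only enhancers of Sp3, Rreb1 and Idh2 were in the class naming both factors, with CEBPA signals of 0.431, 0.482 and 0.353, below the median of all enhancers. Of the 4054 enhancers in the class naming both, 11.7% had a CEBPA rank of at most 50, as did 17% of the 5395 in the class naming CEBPA alone.

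A minority of members had a neighbour of their own set. Another CEBPA-only enhancer lay within 1 kb of 17.3% of CEBPA-only enhancers, a PU.1-only one within 1 kb of 0.734% of them and a co-high one within 1 kb of 1.63%. For PU.1-only enhancers, 23.4% had another of their set within 1 kb and 0.512% a CEBPA-only one. For co-high enhancers these shares were 20.3% for their own set, 2.49% for CEBPA-only and 2.11% for PU.1-only ones. The median distance to the nearest member of the own set was 154 kb, 67.2 kb and 246 kb for CEBPA-only, PU.1-only and co-high enhancers. Co-high enhancers lay at a median of 170 kb from the nearest PU.1-only and 238 kb from the nearest CEBPA-only enhancer. The PU.1-only, CEBPA-only and co-high sets hold 1757, 1226 and 804 enhancers, and a larger set lies nearer by number alone. These distances were not adjusted for set size, so their order is not read. Neighbours can share a peak of signal, as at Ccnd2, which by itself puts them in the same set. Nothing is therefore read from the larger shares with a neighbour of their own set. Some enhancer of the table lay within 1 kb of 57.3% of CEBPA-only, 60.6% of PU.1-only and 60.9% of co-high enhancers, against 63.5% of those low for both. The genes with the most members were Rhou (6 CEBPA-only), Arid1b (6 PU.1-only), and Alox5ap and Klf13 (5 co-high each). Rhou encodes a small GTPase, Arid1b a subunit of a SWI/SNF remodelling complex and Alox5ap a protein of leukotriene synthesis.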

How the data were processed

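The authors deposited 1 table of 44002 enhancers, each with mm9 coordinates, the name of a gene, the stages and factors it was classed under, and numeric columns. Of these, 15 columns of linear signal were used, each matched by assay, population and genotype to a group of 2 libraries, and 17 value columns were not used here (expression, a quantity the labels do not describe, and columns with no listed sample). Per the submitters' processing notes, ChIP-seq reads were processed with Bowtie2, MACS2 and bedtools. The sources used here do not give how libraries were pooled or scaled into the deposited signal. Per the labels' protocols, E. coli DNA was added to the ChIP DNA before amplification. The antibodies were 14AA for CEBPA, Sc-352 for PU.1, ab4729 for H3K27ac and ab8895 for H3K4me1. Without the number of reads behind a value, counting error could not be given. Positions are printed as deposited, and whether starts count from 0 is not stated.

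Percentile ranks were computed over all enhancers with Python 3.11.15, pandas 2.3.3 and scipy 1.17.1. Log2 ratios carried a pseudocount, the 25th percentile of an assay's values rounded to 1 digit (0.7 for H3K27ac, 2 for H3K4me1, 0.6 for PU.1), and a ratio of at least 1 in size was counted as 2-fold. There was no filter and, with 1 pooled value per group, no test. The set rules and ratios were tested on simulated data. The members, the gene lists and the settings were chosen with earlier results of these data known. Named are the 8 strongest enhancers per set, at most 4 enhancers per list and set, all of Cebpa and Spi1, and the 6 strongest genes found in both single-factor sets. Genes with the most members, neighbours of Spi1, enhancers lower or higher in the knockout and those with the highest ratios were named after their values were seen. Of the 10096 gene names, 9226 matched a RefSeq symbol and 832 a synonym. The sequence of the enhancers was not analysed here. Some genes are not reported here.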

Additional observations from a re-analysis of the deposited data

How the results depend on the processing

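No paired analysis was possible because the deposited columns hold 1 value per group and carry no replicate number. For the same reason no replicate could be left out. Under each alternative that was run for the value, CEBPA-only enhancers had lower median H3K27ac and H3K4me1 in preGM, a larger share in a class without preGM and a lower median KO ratio of H3K27ac than PU.1-only enhancers. Of 210 alternative values, 130 lay within a 95% interval over the enhancers of a set or, for counts, within 1.5 times; 76 moved and 4 changed sign. That interval treats enhancers as separate, which neighbours are not, and it serves only as a yardstick of size, not as a replicate error. The filter on H3K27ac (at or above the median of all enhancers in either genotype) was run for the KO values alone. The settings, some of them added after the data were seen, are given in the order CEBPA-only, PU.1-only and co-high; the cause of a change was not tested.

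Calling ranks above 95 high gave 486, 863 and 232 enhancers, and ranks above 80 gave 3072, 3544 and 2627. Calling ranks of at most 25 low gave 397 and 790 of the first and second set, 1 enhancer per gene 260, 428 and 659, and signal per width 281, 580 and 1683. The sets have members at 976, 1325 and 665 genes, so keeping 1 enhancer per gene favoured the co-high set. Values given below for 1 enhancer per gene are therefore not those of a neutral subset.

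The median KO ratio of H3K27ac turned positive at CEBPA-only enhancers with ranks above 80 (0.0162) and with 1 enhancer per gene (0.000831), and at co-high ones with ranks above 80 (0.0139) and signal per width (0.0116). For CEBPA-only it was -0.0724 with ranks above 95 and -0.108 where H3K27ac reached the median of all enhancers. For PU.1-only it was 0.0918 with 1 enhancer per gene, 0.0203 with a pseudocount 4 times larger and 0.0695 where H3K27ac reached the median. With the median of all enhancers subtracted it was -0.0654, 0.000789 and -0.0691. The share at least 2-fold lower in the knockout was 5.71%, 2.16% and 5.22% with a pseudocount 4 times smaller and 0% in each set with one 4 times larger. For CEBPA-only it was 0.356% with signal per width, 0.385% with 1 enhancer per gene and 1.95% where H3K27ac reached the median.

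Median H3K27ac in preGM was 0.647 at CEBPA-only enhancers with low at most 25, 0.705 with widths of at least 100 bp, and 0.823 with 1 enhancer per gene, which gave 1.55 for PU.1-only. Median H3K4me1 at CEBPA-only enhancers was 2.57 with ranks above 80. With low at most 25 it was 1.54 and, for PU.1-only, 3.16. With 1 enhancer per gene it was 2.69 and 3.07, and with widths of at least 100 bp 2.17, 3.06 and 3.25. Signal per width gave 4.54 for co-high.

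The CEBPA-only share at least 2-fold higher in H3K4me1 in GMP than preGM was 6.8% with low at most 25, 3.91% with signal per width, 24.4% and 0% with pseudocounts 4 times smaller and larger, and 1.31% with the median subtracted. For PU.1 in GMP over LSK, ranks above 95 gave 13.4%, 9.85% and 25.4%, and ranks above 80 gave 7.36% for CEBPA-only and 27% for co-high. Signal per width gave 9.61%, 9.66% and 18%, a pseudocount 4 times larger 0.816%, 5.75% and 23%, and the median subtracted 6.61%, 6.49% and 23.8%. A pseudocount 4 times smaller gave 26% and 14.3% for the single-factor sets, low at most 25 gave 5.04% for CEBPA-only, and 1 enhancer per gene 8.41% for PU.1-only.

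The share in a class without preGM was 62.9% for CEBPA-only with ranks above 80 and 77.3% with low at most 25. It was 33% for PU.1-only with ranks above 95, and 63.5% and 40.2% for the single-factor sets with 1 enhancer per gene. Widths of at least 100 bp gave 70.9%, 38.8% and 48.4%, and signal per width 33.6% for PU.1-only and 23.5% for co-high. The depth behind the values is unknown, so what it limits could not be measured.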
